A study of Mus musculus with 18 samples.

Results

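The genes described here are 41 genes of the apoptosis and cell death machinery, read in glomerular cells of wild type and *Cd2ap* mutant mice. They were chosen by symbol: each row of the deposited expression table whose gene symbol matched a listed gene was taken, and where a gene had more than 1 transcript cluster, the brightest on average was used. All 41 genes were found, on 52 of the 28856 transcript clusters, 25254 of which carry a gene symbol. Of the 41, 6 genes (*Bid*, *Bik*, *Bbc3*, *Casp1*, *Tradd* and *Ripk3*) had a signal below 100 on every array and entered no test.

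Programmed cell death runs along a mitochondrial route and a receptor route. On the mitochondrial route the BH3-only proteins sense damage and release the pore formers BAX and BAK from pro-survival proteins such as BCL2, MCL1 and BCL2L1. Cytochrome c then leaves the mitochondrion, assembles with APAF1 into the apoptosome and activates caspase 9. On the receptor route, FAS and the TNF and TRAIL receptors recruit FADD or TRADD and activate caspase 8, which CFLAR restrains, while RIPK1 and RIPK3 can turn the signal towards necroptosis. Inhibitor of apoptosis proteins such as XIAP block caspases, and DIABLO releases that block. Podocytes are post-mitotic cells that are poorly replaced once lost, and their loss is a known feature of focal segmental glomerulosclerosis.

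The mice were 5 weeks of age and either *Cd2ap*-/- (B6.129X1-*Cd2ap*tm1Shaw/J, lacking an adaptor protein of the podocyte slit diaphragm) or wild type. Cells of isolated glomeruli were sorted for GFP from a reporter transgene that differed between the cell types, so both genotypes of a cell type carried the same reporter and cell type cannot be told apart from reporter line. Each of the 6 groups had 3 arrays (Affymetrix Mouse Gene 1.0 ST, after a single round of RNA amplification), described in the series record as biological triplicates and called A, B and C here. All control samples are recorded as wild type, but the titles of the mesangial controls read control where those of the other controls read wild type. Their column names read +:- where the other controls read plus on both sides. The mesangial controls may thus have been heterozygous, and are called wild type here. In sorted populations, a smaller share of a contaminating cell type and less RNA per cell cannot be told apart.

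The libraries were checked before the genes were read. Array medians lay between 62.8 and 71.6 signal units, and 9697 to 10097 transcript clusters per array reached 100. Arrays within a group correlated across all clusters at 0.980 to 0.992, except mutant podocytes, where r was 0.967 to 0.971. The SD of log2 signal between the 3 arrays had a median over the 41 genes of 0.178 in mutant podocytes and of 0.114 to 0.125 in the other groups. All 9 podocyte markers were higher in wild type podocytes than in mesangial cells, 7 of 8 mesangial markers were higher in mesangial cells than in podocytes, and all 9 endothelial markers were higher in endothelial than in mesangial cells, each at an adjusted p under 0.05 in limma. Against podocytes 6 of 9 endothelial markers were higher in endothelial cells, and 7 of 8 mesangial markers were higher in podocytes than in endothelial cells. Wild type mesangial array C stood apart, with a summed signal of the 9 endothelial markers of 7927 against 2428 and 2808 in arrays A and B, and of the 9 podocyte markers of 4059 against 1076 and 1226. Its erythroid (7253), leukocyte (1719) and tubule (1881) sums were also the highest of the wild type mesangial arrays, and mutant mesangial array B had a leukocyte sum of 2412 against 835 and 778. For the 41 genes, calls that changed without wild type mesangial array C are given both ways in pairs of cell types that include mesangial cells. *Cd2ap* itself averaged 1498 in mutant and 1775 in wild type podocytes (log2 difference -0.23, adjusted p = 0.504), 829 and 1027 in mesangial cells (-0.31, adjusted p = 0.151), and 926 and 819 in endothelial cells (0.18, adjusted p = 0.336). Whether its probes lie in the part altered by the mutation is not given in the sources used here, so this reading does not check the genotype, and the directions below rest on the labels.

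**Figure D1:**
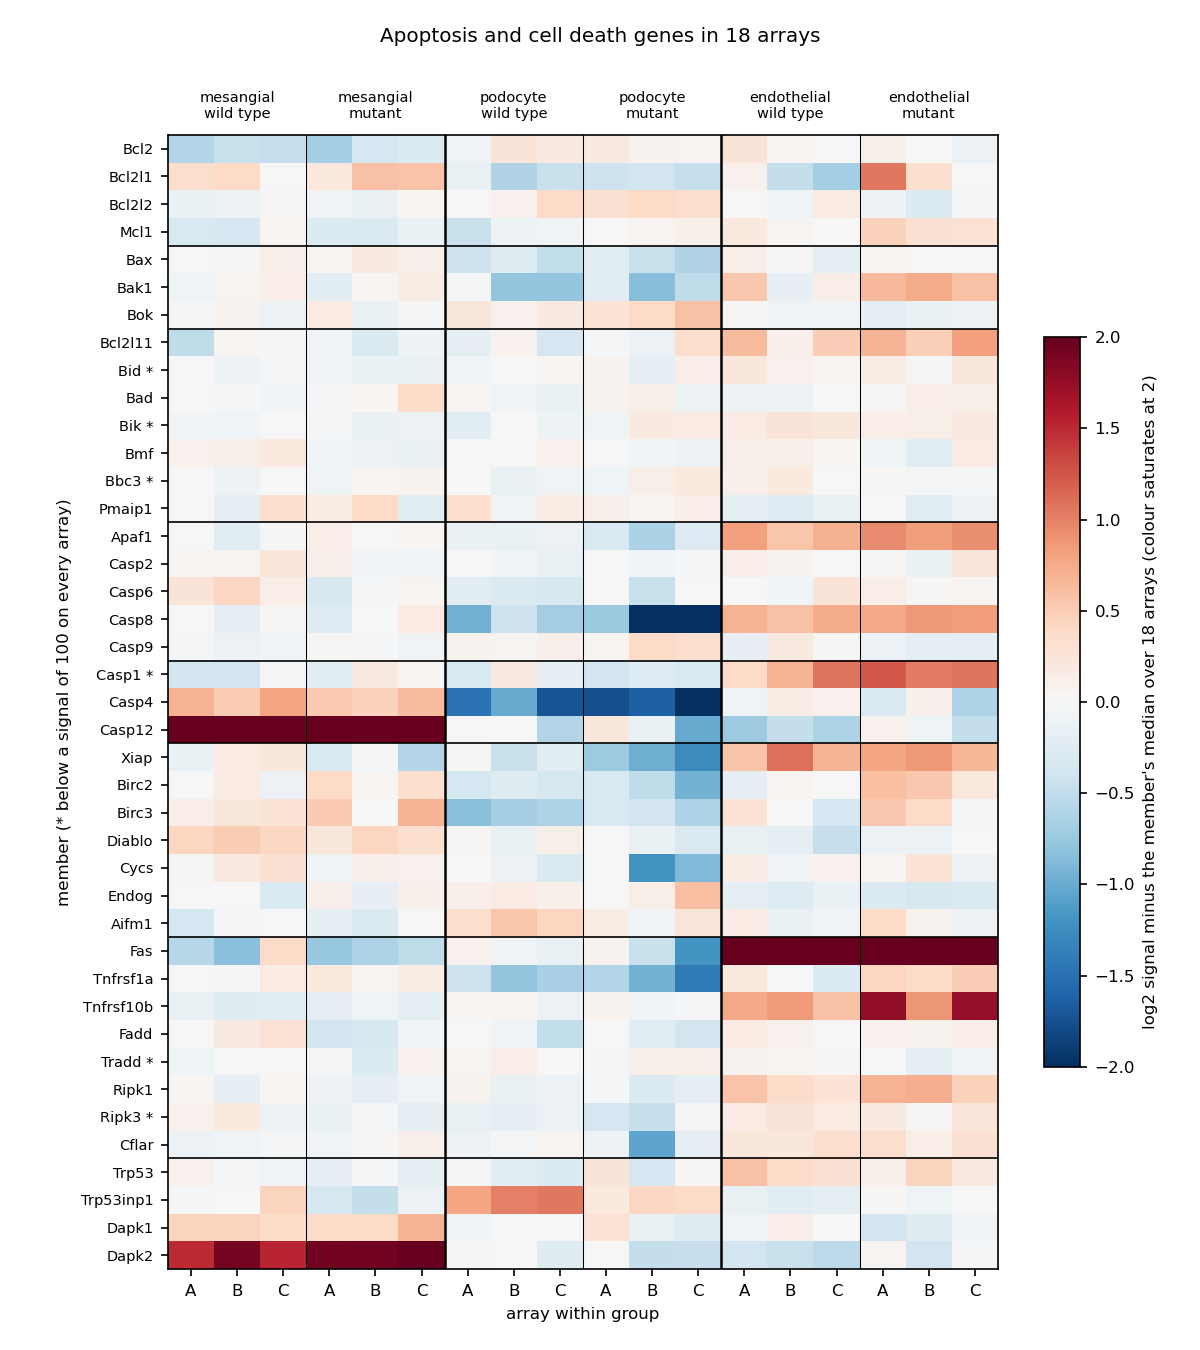
Log2 signal of the 41 genes (rows, by role) on the 18 arrays (columns, by cell type and genotype), each gene relative to its own median over the 18 arrays; blue is lower, red is higher, and an asterisk marks the 6 genes below 100 on every array. The cell types differ more visibly than the genotypes, with *Casp12* and *Dapk2* high in the mesangial columns and *Fas* high in the endothelial columns.

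Of the 33 death genes tested in wild type cells, 16 were highest in 1 cell type and 17 in none. Mesangial cells had the highest levels of *Casp12*, *Casp4*, *Dapk2*, *Dapk1*, *Diablo* and *Bcl2l1*. Endothelial cells had the highest levels of *Fas*, *Casp8*, *Apaf1*, *Xiap*, *Bcl2l11*, *Ripk1*, *Cflar* and *Trp53*, and podocytes of *Trp53inp1* and *Aifm1*. Each of these 16 genes differed from both other cell types at an adjusted p under 0.05 (limma, 9 wild type arrays, Benjamini-Hochberg over 12537 clusters). Of the genes tested, the endothelial 8 make up 24.2%, against 11.5% of all clusters tested that were highest in endothelium, and the mesangial 6 make up 18.2%, against 7.73%. *Casp12* and *Dapk2* of the mesangial 6 entered the test through mesangial arrays alone, and *Bcl2l11* of the endothelial 8 through endothelial arrays alone, so that nothing is read from these shares. The podocyte pair makes up 6.06%, against 7.39%.

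The start regions of 6 of these genes are shown first, because they belong to the genes that separated mesangial from endothelial cells most, together with receptor route genes that were highest in endothelium. Each is the RefSeq window from 250 bases before to 50 bases after the gene start, on the plus strand of GRCm38.p6, read 5′ to 3′. Capitals mark a match to GAAA, any 2 bases and again GAAA, the core of the interferon-stimulated response element, on either strand. The windows lie at chr9:5345226-5345525 (*Casp12*), chr9:66157976-66158275 (*Dapk2*), chr19:34290409-34290708 (*Fas*), chr1:58802252-58802551 (*Casp8*), chr1:58711241-58711540 (*Cflar*) and chr13:34002624-34002923 (*Ripk1*, the second of its 2 windows).
Casp12: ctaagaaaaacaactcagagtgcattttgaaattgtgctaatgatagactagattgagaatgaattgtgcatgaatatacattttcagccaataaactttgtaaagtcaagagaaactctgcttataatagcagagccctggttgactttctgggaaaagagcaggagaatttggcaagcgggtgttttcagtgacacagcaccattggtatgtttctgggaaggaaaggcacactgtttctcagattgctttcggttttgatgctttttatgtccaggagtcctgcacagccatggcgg
Dapk2: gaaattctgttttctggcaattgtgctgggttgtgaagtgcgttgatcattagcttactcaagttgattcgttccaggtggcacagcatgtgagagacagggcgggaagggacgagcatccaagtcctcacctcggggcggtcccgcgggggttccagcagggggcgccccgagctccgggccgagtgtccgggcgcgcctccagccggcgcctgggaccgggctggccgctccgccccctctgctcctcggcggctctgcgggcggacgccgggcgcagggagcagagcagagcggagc
Fas: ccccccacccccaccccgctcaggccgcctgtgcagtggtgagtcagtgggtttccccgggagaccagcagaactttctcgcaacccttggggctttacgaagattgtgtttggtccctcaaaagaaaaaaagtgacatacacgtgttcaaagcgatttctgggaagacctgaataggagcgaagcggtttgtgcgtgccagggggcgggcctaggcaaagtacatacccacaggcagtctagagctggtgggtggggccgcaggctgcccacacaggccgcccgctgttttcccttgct
Casp8: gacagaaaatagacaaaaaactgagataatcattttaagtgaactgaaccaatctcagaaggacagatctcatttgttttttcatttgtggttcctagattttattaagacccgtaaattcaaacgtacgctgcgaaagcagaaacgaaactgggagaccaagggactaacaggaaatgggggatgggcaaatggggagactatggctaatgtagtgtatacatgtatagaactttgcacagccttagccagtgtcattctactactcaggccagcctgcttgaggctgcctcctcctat
Cflar: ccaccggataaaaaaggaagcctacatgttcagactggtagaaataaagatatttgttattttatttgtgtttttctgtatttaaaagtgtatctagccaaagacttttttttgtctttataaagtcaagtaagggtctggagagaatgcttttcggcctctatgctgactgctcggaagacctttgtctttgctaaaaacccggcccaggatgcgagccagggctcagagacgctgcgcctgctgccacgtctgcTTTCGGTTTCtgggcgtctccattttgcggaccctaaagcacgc
Ripk1: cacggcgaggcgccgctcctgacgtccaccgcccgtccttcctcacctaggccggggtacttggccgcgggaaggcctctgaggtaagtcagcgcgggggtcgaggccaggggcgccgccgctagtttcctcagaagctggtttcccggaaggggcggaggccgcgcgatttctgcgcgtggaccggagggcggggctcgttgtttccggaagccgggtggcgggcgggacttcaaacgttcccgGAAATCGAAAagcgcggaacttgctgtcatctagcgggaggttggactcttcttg

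The table of gene starts held 49 windows for 36 of the 41 genes. That core occurred in 2 of the 49 (4.08%), those of *Cflar* and *Ripk1*, against 3.44% of all 32851 windows. In *Ripk1* the match begins 5 bases before the gene start. The p53 half-site, a motif on either strand that is not spelled out here, occurred in 4 windows (8.16%), of *Bax*, *Birc2*, *Bmf* and *Trp53*, against 8.36% of all windows. Both shares are close to those of all gene starts. *Cflar* and *Casp8* are neighbours on chromosome 1 with no protein-coding gene between them, *Casp1*, *Casp4* and *Casp12* lie side by side on chromosome 9, and *Birc2* and *Birc3* are also adjacent there.

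Among the caspases of the inflammatory group, *Casp12*, which sits at the endoplasmic reticulum, had signals of 361, 272 and 294 in wild type mesangial cells. It read 59.9, 60.8 and 40.4 in podocytes and 36.5, 43.6 and 39.5 in endothelial cells. No array of one cell type overlapped with mesangial cells. Both other cell types lay below the minimum signal of 100, so *Casp12* was at least 3.07-fold higher in mesangial cells against that minimum. It reached 100 only in mesangial cells and so entered the test through those arrays alone. The fitted log2 differences, which rest on values below the minimum, were -2.54 for podocyte minus mesangial (SE 0.17, adjusted p = 1.35e-05) and 2.95 for mesangial minus endothelial (SE 0.17, adjusted p = 1.62e-06). *Casp4*, which senses intracellular bacterial lipopolysaccharide, read 668, 591 and 717 in mesangial cells, 149, 206 and 125 in podocytes and 390.2, 460.4 and 439 in endothelial cells. The 3 cell types did not overlap. Podocytes were lower than mesangial cells by 4.19-fold (-2.07, SE 0.17, adjusted p = 2.82e-05) and lower than endothelial cells by 2.74-fold (-1.45, SE 0.17, adjusted p = 0.000135). The mesangial excess of *Casp4* over endothelium was smaller (0.61, SE 0.17, adjusted p = 0.0204) and did not pass when mesangial array C was left out.

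*Dapk2*, a calcium/calmodulin-dependent death-associated kinase, read 214, 285 and 218 in wild type mesangial cells, 76.9, 76.7 and 64.4 in podocytes and 58.1, 56.1 and 52.8 in endothelial cells. Like *Casp12*, it reached 100 only in mesangial cells, so that its place among the genes tested already rests on those arrays. Its mesangial level was at least 2.37-fold higher against the minimum of 100, with fitted log2 differences of -1.71 for podocyte minus mesangial (SE 0.13, adjusted p = 1.87e-05) and 2.09 for mesangial minus endothelial (SE 0.13, adjusted p = 2.26e-06). *Dapk1*, its relative, was higher in mesangial cells by 0.45 over podocytes and 0.40 over endothelial cells on the log2 scale (adjusted p = 0.00373 and 0.00577). *Birc3*, which encodes the inhibitor of apoptosis protein cIAP2 and acts in TNF receptor signaling, read 249, 264 and 273 in mesangial cells, 126, 143 and 147 in podocytes and 275, 226 and 178 in endothelial cells. Podocytes were the low cell type here (-0.92 against mesangial cells, SE 0.15, adjusted p = 0.00138, and -0.69 against endothelial cells, SE 0.15, adjusted p = 0.00477).

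On the receptor route, *Fas*, *Casp8*, *Ripk1* and *Cflar* were highest in endothelium. *Fas*, the receptor of FAS ligand, read 611, 582 and 747 in wild type endothelial cells, 135, 121 and 115 in podocytes and 85.7, 71.2 and 167 in mesangial cells. Every endothelial array lay above every other array. The endothelial level was 5.2-fold that of podocytes (podocyte minus endothelial -2.38, SE 0.27, adjusted p = 0.000109) and 6.39-fold that of mesangial cells (mesangial minus endothelial -2.68, SE 0.27, adjusted p = 5.94e-05). Without mesangial array C both remaining mesangial values lay below the minimum of 100, against which the endothelial level was at least 6.43-fold higher. *Casp8*, the initiator caspase under the death receptors, read 820.2, 758 and 852 in endothelial cells, 510.1, 448 and 515 in mesangial cells and 259.9, 381 and 312 in podocytes, again with no overlap between cell types. Podocytes differed from endothelial cells by -1.37 (SE 0.14, adjusted p = 5.48e-05) and from mesangial cells by -0.64 (SE 0.14, adjusted p = 0.0067). *Ripk1*, the kinase at the branch between survival and necroptosis, was lower in podocytes (-0.47, SE 0.11, adjusted p = 0.00772) and in mesangial cells (-0.43, SE 0.11, adjusted p = 0.0147) than in endothelial cells. *Cflar*, the caspase 8 inhibitor, was also lower in both on its brightest cluster. These differences were smaller (-0.29 in podocytes and -0.34 in mesangial cells, adjusted p = 0.0201 and 0.0122). *Tnfrsf1a*, the TNF receptor 1, was lower in podocytes than in mesangial and endothelial cells (-0.66 and -0.60, adjusted p = 0.00724 and 0.0079), which differed from each other by 0.06 (adjusted p = 0.784). *Fadd* passed in no pair.

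On the mitochondrial route, *Apaf1* read 231, 192 and 213 in endothelial cells, 129.8, 112 and 127 in mesangial cells and 119, 117 and 119.7 in podocytes. The endothelial arrays lay above all others, by 1.78-fold over podocytes (podocyte minus endothelial -0.83, SE 0.10, adjusted p = 0.00014) and by 0.79 on the log2 scale over mesangial cells (adjusted p = 0.000243). Mesangial cells and podocytes differed by -0.05 (SE 0.10, adjusted p = 0.745). *Xiap*, the caspase inhibitor, read 568, 816 and 608 in endothelial cells, 348, 425 and 444 in mesangial cells and 389, 279.5 and 327 in podocytes. It was therefore also an endothelial gene here (podocyte minus endothelial -0.997, SE 0.17, adjusted p = 0.00134). *Bcl2l11*, the BH3-only protein BIM, read 125, 87.4 and 114 in endothelial cells and between 57.3 and 85.8 on the 6 other wild type arrays. It reached the minimum signal on 2 endothelial arrays only and entered the test through them alone. Endothelial array B and the 6 other arrays lay below the minimum. The fitted differences in limma (adjusted p = 0.036 against podocytes and 0.0374 against mesangial cells) therefore rest on values below it, as does the call of *Bcl2l11* as highest in endothelium. Among pro-survival genes, *Bcl2* was lower in mesangial cells than in podocytes (podocyte minus mesangial 0.62, SE 0.11, adjusted p = 0.00311) and endothelial cells (-0.60, adjusted p = 0.00328), and *Bcl2l1* was higher there (adjusted p = 0.039 and 0.0473). *Mcl1* and *Bcl2l2* passed in no pair of wild type cell types.

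Podocytes stood out by *Trp53inp1*, a p53-induced gene that links p53 to cell death and autophagy. It read 421, 488 and 502 in wild type podocytes, 236, 241 and 329 in mesangial cells and 219.8, 208 and 212 in endothelial cells. The podocyte arrays lay above all others (1.14 over endothelial cells, SE 0.13, adjusted p = 0.000147, and 0.82 over mesangial cells, SE 0.13, adjusted p = 0.00154, or 0.98 without mesangial array C). *Aifm1*, the mitochondrial flavoprotein that can act as a caspase-independent death factor, was higher in podocytes by 0.57 and 0.46 (adjusted p = 0.00785 and 0.0159). Of the pore formers, *Bax* was lower in podocytes than in mesangial (-0.41, adjusted p = 0.0195, and adjusted p = 0.0552 without mesangial array C) and endothelial cells (-0.37, adjusted p = 0.0222), and *Bok* read above every mesangial and endothelial array without passing (0.19 and 0.20, adjusted p = 0.13 and 0.0986).

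Counted by pair, podocytes were higher than mesangial cells for 3 of 33 genes and lower for 12, against 11% and 17% of all clusters tested. Podocytes were higher than endothelial cells for 4 and lower for 14, against 16.9% and 21.9%. Mesangial cells were higher than endothelial cells for 6 and lower for 9, against 16.1% and 15.9%. These counts hold genes that reached 100 in 1 cell type only and entered the test through it, namely *Casp12*, *Dapk2* and *Casp6* (1 array) in mesangial cells, *Bcl2l11* in endothelial cells and *Bok* in podocytes. *Casp6* and *Dapk2* lay below 100 on every podocyte and endothelial array, so their calls between these cells rest on values below the minimum. The counts are therefore a description, and nothing is read from their distance to the shares. Signal of endothelial and mesangial marker genes was also read on the wild type podocyte arrays. There the 9 endothelial markers summed to 4542 to 6006 (16026 to 17818 in endothelial cells). The 8 mesangial markers summed to 3965 to 4928 (10126 to 11171 in mesangial cells). Whether this signal came from other cells, and its part in the podocyte levels of single genes, was not tested. Without mesangial array C, 15 genes passed between podocytes and mesangial cells, 14 of them among the original 15, and likewise 15 and 14 between mesangial and endothelial cells. *Bax* and *Casp4* dropped out. *Fas* passed as higher in podocytes than in mesangial cells (0.66, adjusted p = 0.00766, from 0.30 with array C). Both remaining mesangial values of *Fas* lay below 100, so this difference rests on values below the minimum. *Mcl1* passed as lower in mesangial than in endothelial cells (-0.41, adjusted p = 0.0422). Between podocytes and endothelial cells 19 genes passed without array C, and the change is not given by gene here. The shares of all clusters without array C are not given, so nothing is read from these counts.

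The 9 mutant arrays, which share no sample with the wild type arrays, gave the same highest cell type for 11 of the 16 genes (68.8%), against 54.8% of the 3338 clusters that were highest in 1 cell type of the wild type. The test on them was chosen after the data were seen. In mutants, 5 genes were highest in mesangial cells (*Casp4*, *Casp12*, *Diablo*, *Dapk1*, *Dapk2*, background 4.96%), and all 5 were among the 6 of the wild type. *Casp12* and *Dapk2* reached 100 only in mesangial cells in mutants too, and *Tnfrsf10b* only in endothelial cells, so that these counts also are a description. *Trp53inp1* was highest in podocytes in both genotypes, together with *Bcl2l2* and *Bok* in mutants (background 7.53%). In mutant endothelium 8 genes were highest (background 11.2%), of which *Bcl2l11*, *Apaf1*, *Xiap*, *Fas* and *Ripk1* were shared with the wild type. *Casp12* was at least 3.16-fold higher in mutant mesangial cells than the minimum signal, below which all 3 mutant podocyte arrays lay. The other 5 of the 16 were highest in no cell type by the test in mutants. *Casp8* kept its direction in mutant arrays but did not pass between mesangial and endothelial cells (-0.86, SE 0.32, adjusted p = 0.0911). *Cflar* did not pass between the same cells on its brightest cluster, the one used (-0.25, adjusted p = 0.479). On its other clusters every mutant endothelial array lay above every mutant mesangial array. They read 547 to 633 against 345 to 385, and 443 to 542 against 282 to 361. *Trp53* did not pass between endothelium and either other cell type (adjusted p = 0.129 for mesangial cells and 0.188 for podocytes). *Bcl2l1* was no longer highest in mesangial cells, with means of 449.7 there and 470.6 in endothelial cells, nor *Aifm1* in podocytes, with 222 there and 226 in endothelial cells.

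**Figure D2:**
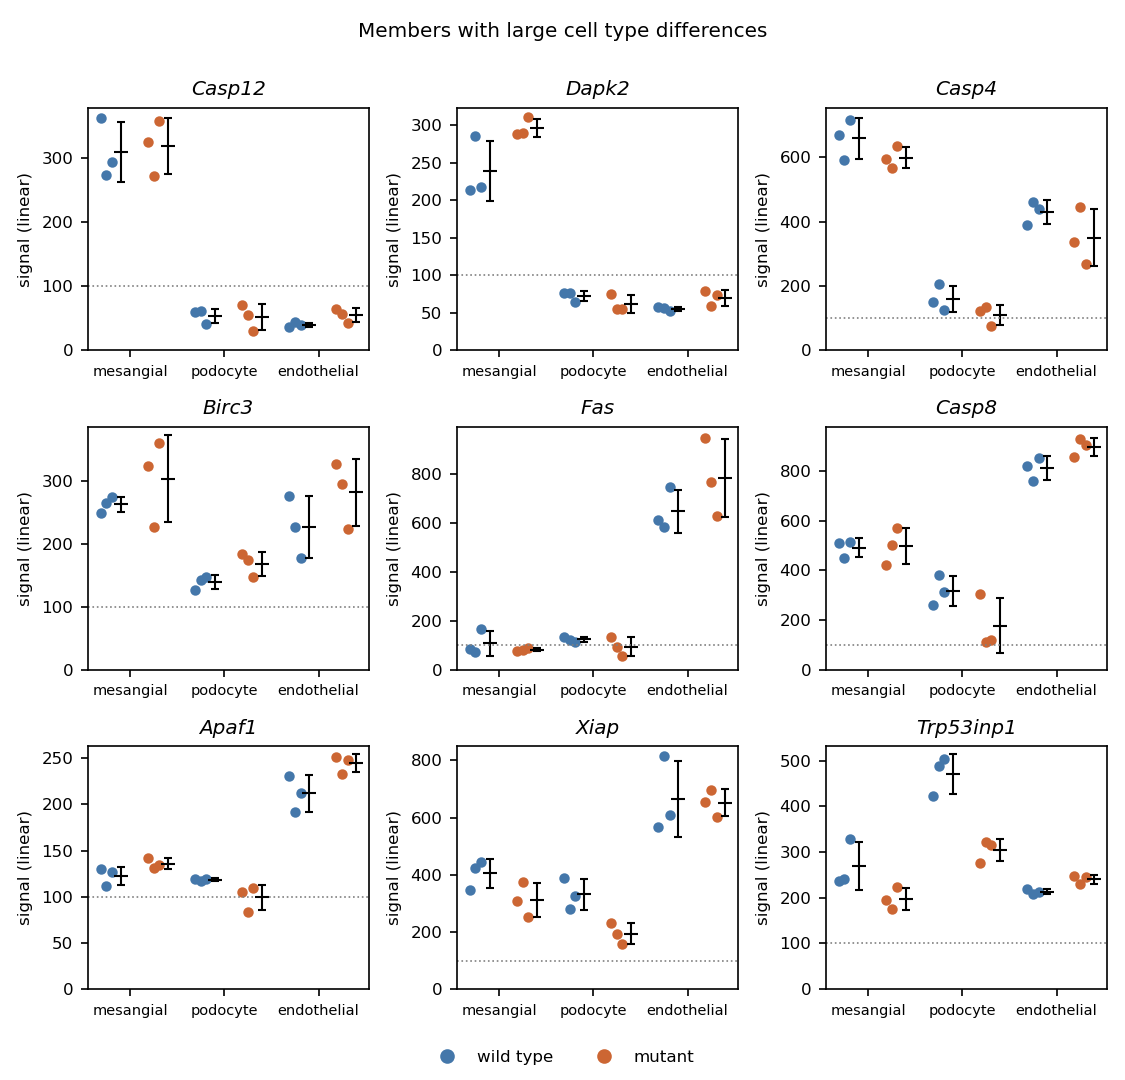
Linear signal of the 9 genes with the largest differences between wild type cell types, 1 point per array (blue wild type, orange mutant), with the mean and SD of 3 arrays as black marks and a signal of 100 as the dotted line. *Casp12* and *Dapk2* exceed 100 only in mesangial cells of either genotype, *Fas* separates endothelial cells from the rest, and *Trp53inp1* is highest in podocytes of either genotype.

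The mutant was then compared with the wild type within each cell type, which asks whether death genes differed between the genotypes at this age. The study reports raised blood urea nitrogen in the mutants, and the part of kidney disease in these differences was not tested. The screen was that of the study's methods, a fold change above 1.5 together with p under 0.05 before adjustment, here from limma, and the Benjamini-Hochberg adjusted p over all clusters is given beside it. With all arrays, none of the 41 genes reached an adjusted p of 0.05 in any cell type, where 2.92% of all clusters tested did so in mesangial cells, 0.0578% in podocytes and 1.29% in endothelial cells. With 1 array left out, *Casp8* (-1.45, adjusted p = 0.0233) and *Cycs* (-0.91, adjusted p = 0.0448) reached it in podocytes without mutant array A, where 2.88% of all clusters did. In endothelial cells *Tnfrsf10b* did so without mutant array B (1.04, adjusted p = 0.012, and 1.72% of all clusters) and *Bak1* without wild type array A (0.68, adjusted p = 0.0474, and 2.26%). The other 15 omissions gave 0 genes. At an unadjusted p under 0.05 alone there were 5 genes in mesangial cells (21.7% of all clusters), 4 in podocytes (14.3%) and 6 in endothelial cells (18.5%).

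**Figure D3:**
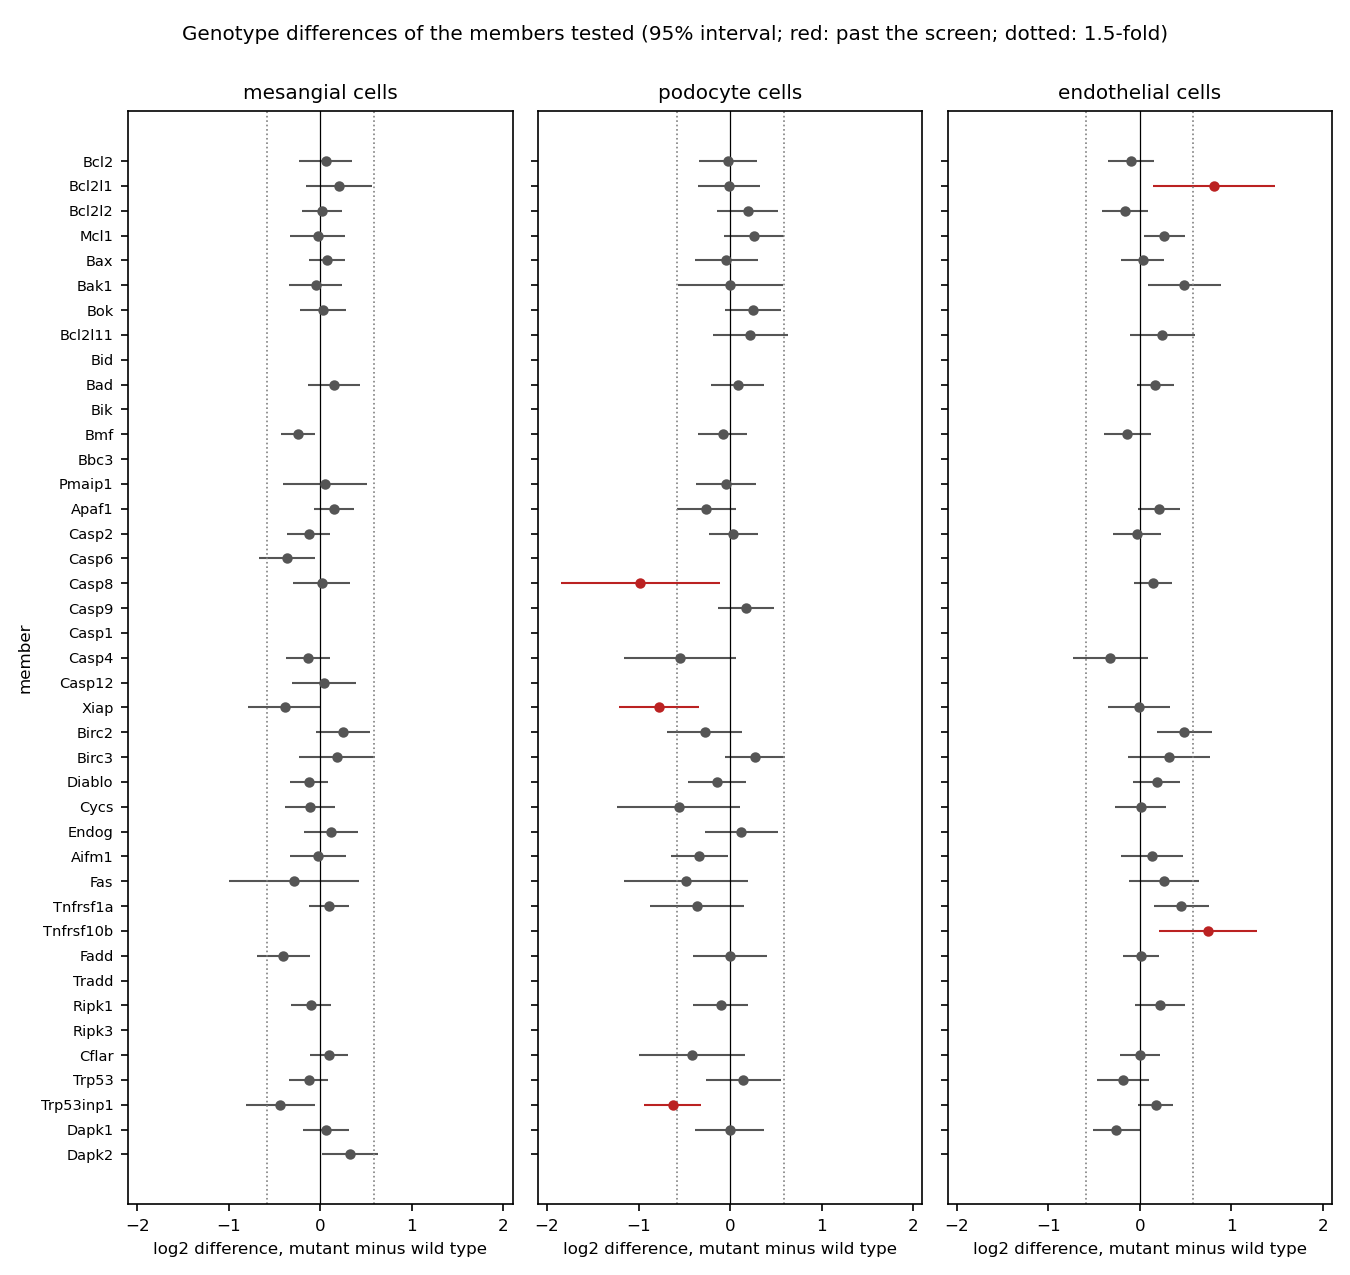
Log2 difference, mutant minus wild type, with its 95% confidence interval from limma for each gene that entered the comparison in mesangial cells (32 genes), podocytes (31) and endothelial cells (28); red marks genes past the screen and dotted lines mark 1.5-fold. The 3 red points of podocytes lie left of 0 and both red points of endothelial cells right of 0, and the mesangial panel has none.

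In mesangial cells the screen passed 0 of 32 genes, where 2.08% of all 11457 clusters passed as higher and 3.12% as lower. Differences ran from -0.44 to 0.32, with a median of 0.02 beside -0.02 for all clusters. The lowest p belonged to *Fadd*, the adaptor that links FAS to caspase 8, at 155, 159 and 192 in mutants and 199.5, 226 and 243 in wild type (-0.40, SE 0.12, adjusted p = 0.13, and -0.34 without wild type array C). *Bmf*, a BH3-only gene tied to the cytoskeleton, and *Casp6*, an executioner caspase, were also below every wild type array (-0.24 and -0.37, adjusted p = 0.142 and 0.168), though *Casp6* reached 100 on only 1 wild type array. *Trp53inp1* read 194, 174 and 223 against 236, 241 and 329 (-0.44, SE 0.16, adjusted p = 0.183, and -0.28 without wild type array C). *Dapk2* and *Apaf1* lay above every wild type array (0.32 and 0.15, adjusted p = 0.213 and 0.399). Non-overlap of this kind was seen for 2 genes above and 4 below, against 12.3% and 16.3% of all clusters. The 8 mesangial markers summed to 7587 to 8642 in mutant and 10126 to 11171 in wild type mesangial cells, and the part of this difference in the values above was not tested.

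In podocytes 3 of 31 genes passed the screen as lower in mutants and 0 as higher, against 4.34% and 1.26% of all 12113 clusters. They were *Trp53inp1*, *Xiap* and *Casp8*. *Trp53inp1* read 277, 322 and 315 in mutants and 421, 488 and 502 in wild type. The groups were separate, and the difference was 1.54-fold (-0.63, SE 0.13, 95% interval -0.93 to -0.32, adjusted p = 0.143). It did not pass without mutant array A (-0.56) or wild type array C (-0.58), nor under quantile normalization (-0.48). *Xiap* read 231, 193 and 158 against 389, 279.5 and 327, also without overlap (1.71-fold, -0.78, SE 0.19, interval -1.21 to -0.34, adjusted p = 0.171). *Casp8* read 304, 111 and 119 against 259.9, 381 and 312, so that mutant array A lay within the wild type range and arrays B and C far below it (-0.98, SE 0.37, interval -1.85 to -0.11, adjusted p = 0.31). Without mutant array B the *Casp8* difference was -0.72 and without array C -0.77, and neither passed. Without array A it was -1.45 and passed.

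The podocyte arrays also differed in the markers of other cell types. The 9 endothelial markers summed to 2764, 1338 and 884 in mutant arrays A, B and C and to 5061, 6006 and 4542 in wild type, and 8 of the 9 passed the screen as lower. The 8 mesangial markers summed to 3691, 2665 and 1226 against 4928, 4451 and 3965. The 4 erythroid markers summed to 5405, 719.6 and 232 against 2987 to 3989. Mutant array A, the one in which *Casp8* was within the wild type range, carried the highest sums of the 3 mutant arrays in each of these lists. *Casp8* and *Xiap* were endothelial genes in the wild type comparison, and the part of the endothelial signal in their difference was not tested. *Trp53inp1* read lower in endothelial cells than in podocytes in the wild type. The 9 podocyte markers summed to 13102 to 15164 in mutant and 14220 to 15683 in wild type podocytes. The 6 juxtaglomerular and smooth muscle markers summed to 3249, 2613 and 1198 in mutants and to 971 to 1015 in wild type, and of the 5 tested, 2 passed the screen as higher and 0 at an adjusted p under 0.05.

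**Figure D4:**
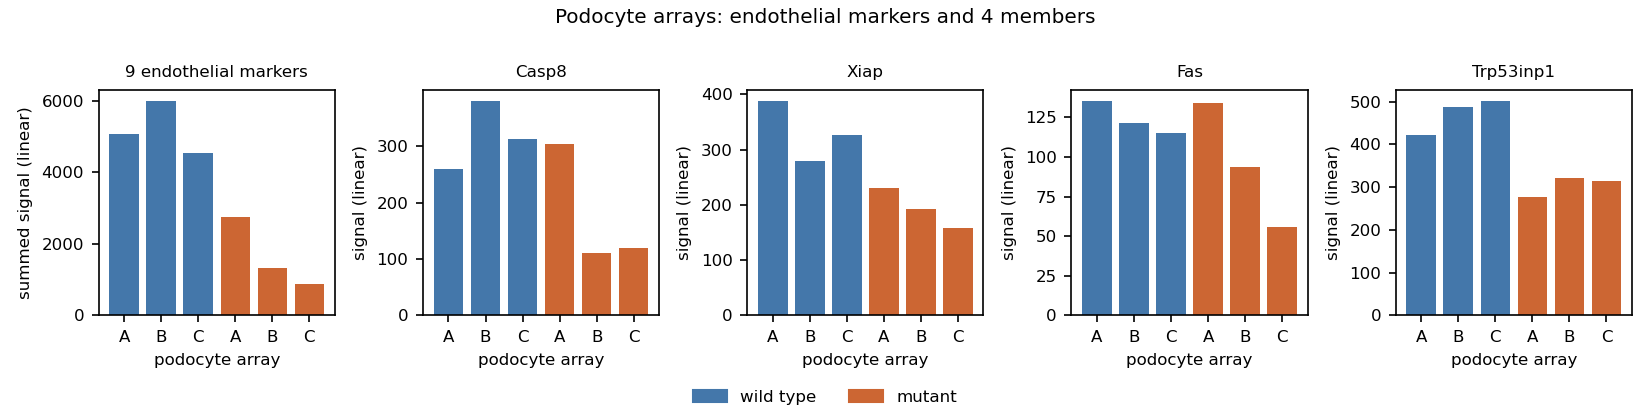
Summed linear signal of 9 endothelial markers and linear signal of 4 genes on each of the 6 podocyte arrays (blue wild type, orange mutant; bars start at 0). The endothelial sum is 884 to 2764 on mutant and 4542 to 6006 on wild type arrays, *Casp8* is within the wild type range on mutant array A alone, and *Trp53inp1* is between 277 and 322 on all 3 mutant arrays.

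The study's text names *Bak1*, *Apaf1*, *Bok* and *Bcl2l11* among cell death genes of mutant podocytes, with *Moap1*, *Pawr*, *Pdcd2* and *Perp*. That list was drawn from the study's RNA-seq data, and the values here are array signals. *Bak1*, a pore former, read 137, 88.2 and 112 in mutant and 155, 92.5 and 93.6 in wild type podocytes. The groups overlapped fully (0.00, SE 0.25, interval -0.57 to 0.58, adjusted p = 0.997), and the sign turned when array medians were subtracted. *Apaf1* read 105.5, 84.05 and 109.1 against 119, 117 and 119.7, lower on all 3 mutant arrays without passing (-0.26, SE 0.14, interval -0.58 to 0.06, adjusted p = 0.436). *Bok*, a BAX relative that can permeabilise mitochondria on its own, read 108, 118 and 134 against 105, 95.3 and 102 (0.25, SE 0.13, interval -0.05 to 0.56, adjusted p = 0.423). *Bcl2l11* read 79.2, 74.9 and 104 against 71.2, 85.8 and 64.0 (0.22, SE 0.18, interval -0.19 to 0.63, adjusted p = 0.596). For *Bok*, like *Apaf1*, the groups were separate but the intervals include 0. Of the other four, *Perp* passed the screen as higher (0.63, SE 0.17, adjusted p = 0.198), from 55.5, 59.4 and 62.9 in wild type to 92.6, 112.0 and 74.5 in mutants, and reached 100 on 1 mutant array only. *Pawr* lay above every wild type array without passing (0.29, SE 0.14, adjusted p = 0.396), and *Moap1* and *Pdcd2* overlapped (-0.08 and -0.05, adjusted p = 0.909 and 0.877).

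Further podocyte genes did not pass. *Cycs*, which encodes cytochrome c, read 983, 430.4 and 539 in mutants against 995, 916 and 806 (-0.56, SE 0.29, adjusted p = 0.415). *Cflar* on its brightest cluster read 1545, 798 and 1443 against 1521, 1614 and 1718, with mutant array B lowest (-0.42, SE 0.25, adjusted p = 0.482). On its other clusters mutant arrays B and C both lay below every wild type podocyte array, and mutant array A lay within the wild type range. Arrays B and C read 265.9 and 259.6 against 345.5 to 388.2, and 250.6 and 202.1 against 272.2 to 314.8. *Aifm1* was below every wild type array (-0.33, adjusted p = 0.325) and *Mcl1* above (0.26, adjusted p = 0.445). In all, 2 genes lay above and 4 below without overlap, against 6.97% and 14.3% of all clusters. The median over the 31 genes was -0.04, and over all clusters -0.04.

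In endothelial cells 2 of 28 genes passed the screen as higher in mutants and 0 as lower, against 2.96% and 0.865% of all 11330 clusters. They were *Tnfrsf10b*, the mouse receptor of the death ligand TRAIL, and *Bcl2l1*, the pro-survival gene of BCL-XL, which act in opposite directions on cell death. *Tnfrsf10b* read 174, 93.4 and 171 in mutant endothelial cells and 85.4, 91.1 and 76.2 in wild type. Mutant array B was only just above the wild type arrays (fitted log2 difference 0.74, SE 0.23, interval 0.21 to 1.28, adjusted p = 0.172). The gene stood at 42.8 to 53.2 in the other 12 arrays and entered the test through mutant endothelial arrays A and C alone. All wild type arrays lay below the minimum signal of 100, and against that minimum it was at least 1.41-fold higher in mutants, which is under the fold of the screen. Its pass therefore rests on values below the minimum. *Bcl2l1* read 678, 409 and 325 against 347, 235 and 204, with an overlap between mutant array C and wild type array A (1.76-fold, 0.81, SE 0.29, interval 0.15 to 1.48, adjusted p = 0.203). Without mutant array A neither gene passed, at 0.59 for *Tnfrsf10b* and 0.51 for *Bcl2l1*. *Bcl2l1* also did not pass without wild type array B (0.75) or C (0.65).

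**Figure D5:**
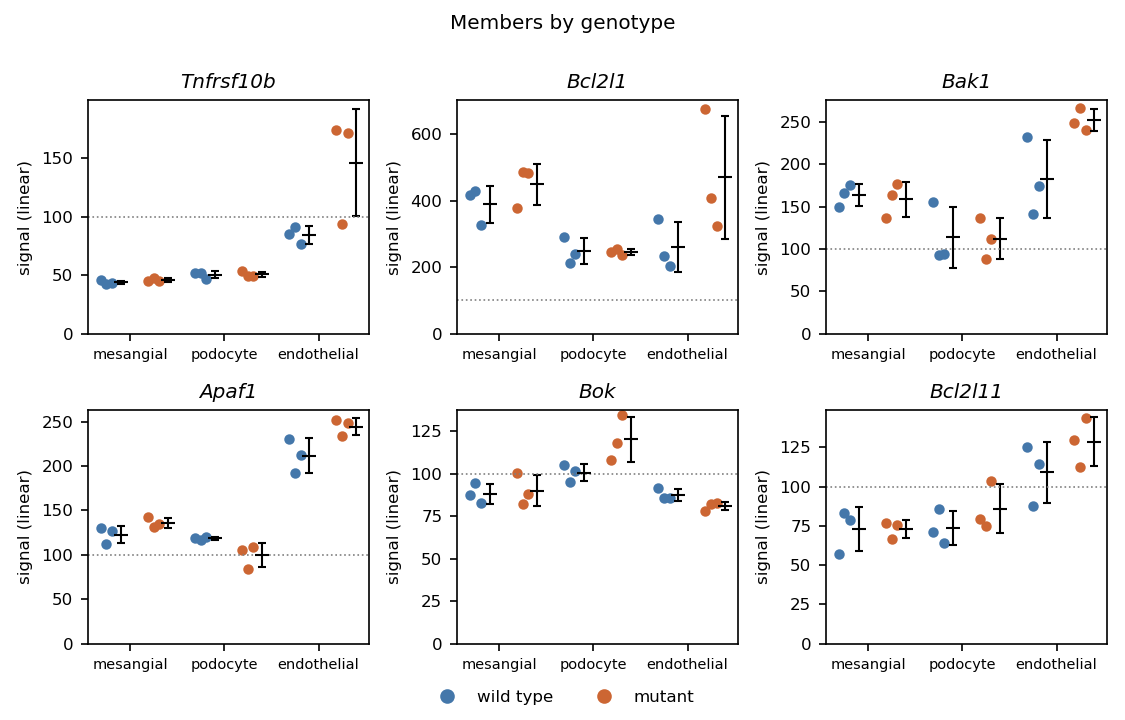
Linear signal of the 2 genes past the screen in endothelial cells and of the 4 genes named by the study for podocytes, 1 point per array (blue wild type, orange mutant) with the mean and SD of 3 arrays as black marks and a signal of 100 as the dotted line. *Tnfrsf10b* reaches 174 and 171 on mutant endothelial arrays A and C, and *Bak1* overlaps between genotypes in podocytes while all 3 mutant endothelial arrays lie above the wild type.

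Further endothelial differences were smaller, with groups that did not overlap. In 10 of the 28 genes tested every mutant array was above every wild type array and in 0 every one was below, against 17.7% and 7.34% of all clusters. Besides *Tnfrsf10b* they were *Birc2*, *Tnfrsf1a*, *Bak1*, *Mcl1*, *Apaf1*, *Trp53inp1*, *Bad*, *Diablo* and *Casp8*. *Birc2*, which encodes cIAP1, a ubiquitin ligase of TNF receptor signaling, read 458, 440.3 and 349.5 against 267, 316 and 304 (0.49, SE 0.13, adjusted p = 0.126). *Tnfrsf1a* read 425, 409 and 443 against 366, 315 and 260.0 (0.45, SE 0.13, adjusted p = 0.149). *Bak1* read 249, 266 and 241 against 233, 142 and 175 (0.49, SE 0.17, adjusted p = 0.2). These 3 differences stayed below the fold of the screen. The median of the 28 was 0.16 beside 0.07 over all clusters, and 0.03 over all 41 genes without the minimum signal. The endothelial markers summed to 17796 to 18661 in mutant and 16026 to 17818 in wild type endothelial cells, and the 12 leukocyte markers to 1486, 1056 and 811 in mutant arrays A, B and C and 740 to 930 in wild type. The 8 mesangial markers summed to 1038, 754 and 790 against 697 to 806. The 4 erythroid markers summed to 1352, 1808 and 1246 in mutants and to 3926, 1378 and 2473 in wild type. Mutant array A, without which *Tnfrsf10b* and *Bcl2l1* did not pass, was the highest mutant array in the leukocyte and mesangial lists. *Tnfrsf10b* was about as high on mutant array C (171), which had the lowest leukocyte sum (811) and a mesangial sum (790) within the wild type range. The part of these other cell types in the values above was not tested.

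Whether the genotype effect differed between cell types was tested by interaction contrasts over all 18 arrays and 13523 clusters. *Trp53inp1* passed between endothelial cells and podocytes, where its effects were 0.17 and -0.63 (difference 0.80, SE 0.18, interval 0.42 to 1.18, adjusted p = 0.0352). It was the only 1 of 35 genes tested to do so, against 2.11% of all clusters, with 14 at an unadjusted p under 0.05 (23.4% of all clusters), and the call was lost under quantile normalization (adjusted p = 0.135) and when any 1 of 8 arrays was left out. *Birc2* (0.76, adjusted p = 0.0699), *Tnfrsf1a* (0.81, adjusted p = 0.0763), *Apaf1* (0.47, adjusted p = 0.0854), *Tnfrsf10b* (0.73, adjusted p = 0.0964), *Xiap* (0.77, adjusted p = 0.0981) and *Casp8* (1.13, adjusted p = 0.101) came next and did not pass. With mutant podocyte array A left out, 10 of 35 genes passed, against 13.8% of all clusters. In the contrasts of podocytes and of endothelial cells with mesangial cells 0 genes passed, against 0.717% and 1.07% of all clusters, with 6 and 3 genes at an unadjusted p under 0.05 (12% and 15.9% of all clusters).

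By role, the calls were 1 of 4 pro-survival genes tested in endothelial cells (*Bcl2l1*) and 1 of 6 death receptors and partners there (*Tnfrsf10b*), both higher, where 2.96% of all clusters passed as higher. In podocytes they were 1 of 4 genes of the apoptosome and caspase group (*Casp8*), 1 of 7 inhibitors of apoptosis and mitochondrial factors (*Xiap*) and 1 of 3 of the p53 and death-associated kinase group (*Trp53inp1*), all lower, where 4.34% of all clusters passed as lower. Each role holds at most 1 call, so nothing is read from a role. Pore formers (2 or 3 tested), BH3-only genes (3 or 4) and inflammatory caspases (1 or 2) gave 0 in each cell type. *Casp1*, below 100 throughout, read 88.3, 75.5 and 77.8 in mutant and 48.3, 59.6 and 77.8 in wild type endothelial cells, and 28.7 to 42.1 on the other arrays. Of the remaining untested genes, *Bid* read 46.5 to 61.2, *Bbc3* 66.4 to 85.2, *Bik* 69.9 to 97.7, *Tradd* 57.3 to 75.6 and *Ripk3* 54.5 to 90.1 over the 18 arrays.

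The remaining genes had no call in any cell type. *Casp4* averaged 110.7 in mutant and 160.2 in wild type podocytes (-0.55, SE 0.26, adjusted p = 0.39) and differed by -0.13 in mesangial and -0.32 in endothelial cells. *Fas* averaged 94.4 and 123.9 in podocytes (-0.48, SE 0.29, adjusted p = 0.488) and differed by -0.28 and 0.26. Both were lower in podocytes than in endothelial cells in the wild type. *Bcl2* ranged from 131.6 to 252.6 over the 18 arrays, with genotype differences of 0.06 in mesangial cells, -0.02 in podocytes and -0.09 in endothelial cells. *Bax* ranged from 179.9 to 308.9 and differed by 0.07, -0.04 and 0.03 in the same order. *Bcl2l2*, another pro-survival gene, ranged from 81.7 to 130.2 and differed by 0.02, 0.19 and -0.16. The genotype groups of *Bcl2*, *Bax* and *Bcl2l2* overlapped in podocytes. *Bad*, a BH3-only protein controlled by growth factor signaling, ranged from 92.7 to 131.8, and *Pmaip1*, the BH3-only protein NOXA, reached 100 on 3 arrays only. *Casp2*, an initiator caspase, ranged from 94.5 to 124.0, and *Casp9*, the initiator of the apoptosome, reached 100 only on 2 mutant podocyte arrays (112.9 and 107.1, difference 0.17, adjusted p = 0.581). These 4 genes lay near the minimum signal, which limits what could be seen. *Endog*, a mitochondrial nuclease, ranged from 81.4 to 154.9, *Diablo* from 120.9 to 237.1 and *Dapk1* from 96.3 to 202.3, with podocyte differences of 0.12, -0.14 and -0.0046. *Dapk1* differed by -0.25 in endothelial cells (adjusted p = 0.274).

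By median, the death receptors and their partners differed by -0.10 in mesangial cells, -0.36 in podocytes and 0.24 in endothelial cells, over 5, 5 and 6 genes tested, and by -0.07, -0.10 and 0.12 over all 8 without the minimum signal. Inhibitors of apoptosis and mitochondrial factors differed by -0.02, -0.28 and 0.16, over 7, 7 and 6 tested, the last being 0.14 over all 7. All clusters had medians of -0.02, -0.04 and 0.07. In podocytes 4 of the 5 receptor genes and 5 of the 7 inhibitor and mitochondrial genes had negative values, beside 19 of all 31 genes tested. On these arrays the endothelial and mesangial marker sums were lower in mutants, and their part in these values was not tested.

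Other genes of the same pathways were read from lists that do not overlap with the 41, except for the p53 targets. Among 40 further apoptosis genes the screen passed 0 of 28 tested in mesangial cells, 0 of 29 in podocytes and 0 of 28 in endothelial cells. Of all clusters, 2.08% passed as higher and 3.12% as lower in mesangial cells, 1.26% and 4.34% in podocytes, and 2.96% and 0.865% in endothelial cells. Among 19 further death ligands and receptors, of which 11, 12 and 11 were tested in the same order, 1 passed in each cell type. *Tnfrsf12a*, the TWEAK receptor, passed as higher in mesangial cells and podocytes. It read 125.6, 193.4 and 176.4 in mutant and 103.5, 95.4 and 99.2 in wild type mesangial cells (0.71, SE 0.16, adjusted p = 0.0728). In podocytes it read 199.8, 283.6 and 264 against 123.3, 144 and 178.6 (0.75, SE 0.19, adjusted p = 0.188). No mutant array overlapped with the wild type in either cell type. The 6 juxtaglomerular and smooth muscle markers summed to 1767, 2822 and 3114 in mutant and to 1683, 1908 and 1564 in wild type mesangial cells, and *Acta2* (1.07, adjusted p = 0.0949) and *Tagln* (0.88, adjusted p = 0.229) passed the screen as higher. Their part in the *Tnfrsf12a* values was not tested. *Daxx*, a FAS-binding nuclear protein, rose in mutant endothelial cells, at 236.2, 238.3 and 206.3 against 145.3, 112.4 and 132.4 (0.81, SE 0.12, adjusted p = 0.0207). Of 11 further necroptosis and pyroptosis genes, 6, 6 and 5 were tested and 0, 1 and 1 passed in mesangial cells, podocytes and endothelial cells. *Zbp1*, a sensor of nucleic acids that engages RIPK3, rose in mutant endothelial cells, with 251.6, 299.3 and 181.3 against 68.5, 62.9 and 68.4 (1.85, SE 0.17, adjusted p = 0.00371). Its wild type values lay below the minimum of 100 and it entered the test through the mutant arrays alone, so it was at least 2.39-fold higher against that minimum. *Gsdme*, a pore-forming gasdermin, passed the screen as higher in mutant podocytes (0.63, SE 0.19, adjusted p = 0.213).

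Of 29 p53 target genes, 1 of 18 tested in mesangial cells (*Plk2*, lower), 4 of 19 in podocytes (1 higher, 3 lower) and 2 of 19 in endothelial cells (both higher) passed the screen. The shares of all clusters are those given for the further apoptosis genes. *Cdkn1a*, the p21 inhibitor of the cell cycle, rose in mutant endothelial cells, at 676.2, 688.3 and 526.4 against 334.7, 281.2 and 286.4 (1.06, SE 0.13, adjusted p = 0.0105), and *Tnfrsf10b* was the other. In podocytes *Perp*, a p53 effector at the cell membrane, passed as higher (0.63, SE 0.17, adjusted p = 0.198). It entered the test through 1 mutant array at 112 over wild type values of 55.5 to 62.9, so its pass rests on values below the minimum. *Trp53inp1*, *Ccng1* (-0.62, SE 0.25, adjusted p = 0.325) and *Ei24* (-0.95, SE 0.22, adjusted p = 0.162) passed as lower. Of the 19 tested in podocytes, 15 had negative and 4 positive values, with a median of -0.24 beside -0.04 over all clusters, and -0.08 over all 29 without the minimum signal. In the same arrays the 9 endothelial markers had a median of -1.66 and 8 of them passed as lower. Of the 19 p53 targets tested between wild type podocytes and wild type endothelium, 7 were lower in podocytes at an adjusted p under 0.05 (*Bax*, *Apaf1*, *Fas*, *Cdkn1a*, *Phlda3*, *Polk* and *Plk2*). A further 4 were higher (*Trp53inp1*, *Ccng1*, *Ei24* and *Trp53i11*). Of all clusters, 21.9% were lower and 16.9% higher in this pair. The part of the endothelial signal in the podocyte values was not tested. *Trp53* itself read 394, 259 and 334 in mutant and 327, 282 and 273 in wild type podocytes (0.15, SE 0.18, adjusted p = 0.739), and its differences in mesangial and endothelial cells were -0.13 and -0.18 (adjusted p = 0.465 and 0.454).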

How the data were processed

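The authors hybridized amplified RNA of sorted cells to Affymetrix Mouse Gene 1.0 ST arrays and deposited 1 table with an intensity (linear signal after RMA normalization, per the labels) for each of 18 arrays. The names of the columns used end in raw, and a further 18 columns of per-sample values were not used. The series record speaks of exon arrays, unlike the methods and the header of the table. Columns match groups, not single samples, and arrays are therefore named by letter.

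Log2 intensities were fitted with lmFit and eBayes (limma 3.58.1, R 4.3.3) on all clusters whose intensity reached 100 on any array of the comparison. Differences carry their SE and Benjamini-Hochberg adjusted p. The genes whose values are printed array by array are those past the screen, those the study names for podocytes and the 5 largest differences of each pair of wild type cell types. Any other gene with array values was chosen after its values were seen. Clusters with a second symbol represent 4 genes (*Bad*, *Casp9*, *Diablo*, *Endog*), and 8 genes have more than 1 cluster. Scripts were tested on simulated data. Alternatives covered the minimum signal, eBayes options, normalization, the cluster rule, the samples fitted and left-out arrays. The genes and lists were chosen with earlier results of these data known. Promoter windows are RefSeq sequences of GRCm38.p6, while the array annotation uses another build. The number of arrays limits the precision.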

Additional observations from a re-analysis of the deposited data

Results flagged for a closer look

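The genotype effect differed between cell types for 3 genes of the cell death and p53 lists by the interaction test of limma over 18 arrays. Among the cell type markers it also differed for *Tek*, *Meis1* and *Ren1*. Of all 13523 clusters, 0.717% passed for podocyte minus mesangial, 1.07% for endothelial minus mesangial and 2.11% for endothelial minus podocyte effects. *Trp53inp1* was 1 of 35 tested among the 41 genes (2.86%, near the 2.11% of all clusters), and *Daxx* 1 of 13 tested among the further death ligands and receptors. From the lists outside the 41, *Ei24* and *Daxx* were taken because they had already passed the genotype screen on these same arrays. The number of p53 targets tested in this contrast is not given for *Ei24*. Nothing is therefore read from the number of genes. For *Trp53inp1* the effect in endothelial cells exceeded that in podocytes by 0.80 on the log2 scale (SE 0.18, adjusted p = 0.0352). For *Ei24*, an endoplasmic reticulum protein induced by p53, the same difference was 1.35 (SE 0.31, adjusted p = 0.0362), from 0.40 in endothelial cells and -0.95 in podocytes. For *Daxx* the effect in endothelial cells exceeded that in mesangial cells by 0.81 (SE 0.17, adjusted p = 0.0351). None of the 3 calls held under quantile normalization (adjusted p = 0.135 for *Trp53inp1*, 0.0764 for *Ei24* and 0.0969 for *Daxx*). Of the 18 omissions of 1 array, 8 ended the call of *Trp53inp1* (differences 0.73 to 0.88, adjusted p up to 0.0876), 8 that of *Ei24* (1.15 to 1.54, up to 0.0951) and 9 that of *Daxx* (0.71 to 0.89, up to 0.089), while all 3 calls held with array medians subtracted. The alternatives for *Ei24* and *Daxx* were chosen after the data were seen. For the endothelial marker *Tek* the effect in endothelial cells exceeded that in podocytes by 2.18 (SE 0.42, adjusted p = 0.0237). For the mesangial marker *Meis1* the effect in podocytes minus that in mesangial cells was -0.996 (SE 0.21, adjusted p = 0.0429). For *Ren1*, the renin gene of juxtaglomerular cells, it was 1.72 (SE 0.36, adjusted p = 0.0392), and the effect in endothelial cells minus that in podocytes was -1.91 (SE 0.36, adjusted p = 0.0237).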

How the results depend on the processing

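No paired analysis was possible because the deposited columns carry no replicate number shared between groups. Of the single-gene values under the alternatives, 495 kept direction and call, 33 kept direction and lost the call, 1 gained it and 5 reversed. Of the counts, 148 stayed within 1.5 times and 20 did not. All 5 reversals are *Bak1* in podocytes, at -0.028 with array medians subtracted and at -0.15 to 0.25 when 1 array was left out, negative without mutant array A or C or wild type array B or C. With an adjusted p in place of the screen, alone or with the fold, 0 genes passed in podocytes and 0 in endothelial cells. With the minimum signal in all arrays of a group 1 passed in endothelial cells, and *Tnfrsf10b* had no value. The contrast of endothelial cells and podocytes gave 5 genes with array medians subtracted and 0 under quantile normalization. These 2 counts stand without the share of all clusters under the same setting, so nothing is read from them. Leaving out 1 array at a time gave 0 to 0 genes in mesangial cells, 2 to 4 in podocytes, 0 to 3 in endothelial cells (0 without mutant array A, and 1, *Tnfrsf10b*, without wild type array B or C), 12 to 15, 12 to 19 and 12 to 15 for the wild type pairs (podocyte and mesangial, podocyte and endothelial, mesangial and endothelial), and 0 to 2, 0 to 1 and 0 to 10 for the contrasts of podocyte and mesangial, endothelial and mesangial, and endothelial and podocyte effects. Of these contrasts, the highest counts came without mutant podocyte array A (2 and 10) and mutant endothelial array B (1), and the last fell to 0 without mutant endothelial array A or C, wild type endothelial array B or C, or any wild type podocyte array. The counts with 1 array left out also stand here without the share of all clusters, so nothing is read from them. *Trp53inp1* in podocytes was -0.48 under quantile normalization and did not pass, nor without mutant array A or wild type array C (range -0.70 to -0.56). *Xiap* passed in all 6 (-0.91 to -0.64) and *Casp8* in 2 (-1.45 to -0.72). *Bcl2l11* in podocytes had a value in 5 of 6. The causes were not tested.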
